A study of Mus musculus with 9 samples.

Results

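Neutrophil granule and cytosolic genes were followed one array at a time in brain RNA from a mouse series on Alzheimer's disease. The genes are Mpo, Elane, Ngp, Camp, Ltf, Mmp8, S100a8, S100a9, Cd177 and Lcn2, 10 of the 19938 genes that the array measured through a probe set with a single gene symbol. They were chosen by their measured levels in these same 9 arrays, so the levels below are a description that supports no test. All 10 were found, each with 1 probe set, and no filter on low values was applied. The series held 3 groups of 3 arrays. The control group was wild type C57/6J mice, the model group was APP/PS1 transgenic mice on the C57/6J background, and the HPYD group was APP/PS1 transgenic mice of that background given the polypeptides HPYD. APP/PS1 mice carry human disease forms of the amyloid precursor protein and of presenilin, and HPYD is a short β-sheet breaker peptide. Per the study's methods, HPYD was dosed through the nose at 33 mg/mL and 5 µL per day over 30 days, the other groups got an equal volume of saline, and the APP/PS1 mice were bought at an age of 8 months, with controls of the same age. Neither the promoter of the transgenes nor the sex of the mice was given in the sources used here, and no source ties each array to 1 animal. The arrays are named here by group and number as in the labels.

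Neutrophils are made in the bone marrow, where their granules are filled in waves. Promyelocytes make the primary, or azurophil, granules that hold myeloperoxidase and neutrophil elastase. Myelocytes and metamyelocytes, the next stages, make the secondary and tertiary granules that hold lactoferrin, the cathelicidin Camp, Ngp and the collagenase Mmp8. Mature neutrophils have mostly shut down the azurophil genes, so messenger RNA of Mpo and Elane marks precursors, while S100a8 and S100a9 stay high in mature cells. Healthy brain tissue holds few neutrophils.

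Brain genes gave high signals in all 9 arrays. Snap25, a synaptic protein gene, ranged from 13.08 to 13.27 on the log2 scale and the myelin gene Mbp from 11.89 to 12.21. The glutamate transporter gene Slc17a7 lay between 11.09 and 12.40, and the astrocyte gene Gfap between 9.34 and 10.88. The array labelled HPYD group 3 went against its label. Its App signal was 12.53, where the other APP/PS1 arrays had 12.95 to 13.02 and the controls 12.56 to 12.62. Its Prnp and Cst7 signals were 11.52 and 6.21, against 12.42 to 12.55 and 8.14 to 10.04 in the other APP/PS1 arrays. Xist, which is expressed in female cells, was 11.18 to 11.78 in the other APP/PS1 arrays, 5.22 in this one and 5.20 to 5.69 in the control group. Kdm5d, on the Y chromosome, was 7.62 to 7.84 in these 4 arrays and 4.51 to 5.23 in the other 5. Xist and Kdm5d thus separated the control group from the model group, and genotype and sex cannot be told apart in that comparison. The group comparisons that use this array are given with and without it.

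The promoters of 4 genes are shown first because they stand for the early and the late granule genes, the contrast followed below. Mpo and Elane are the early genes, and Ngp and Ltf are from the late ones. Each is the 250 bases before the gene's start in RefSeq on GRCm38.p6, on the plus strand, at chr11:87793534-87793783 for Mpo, chr10:79886062-79886311 for Elane, chr9:110419558-110419807 for Ngp and chr9:111019042-111019291 for Ltf. Capitals mark matches, on either strand, to TTGCNNAA, a form of the motif of the C/EBP factors, or to GAGGAAG, a form of the motif of PU.1, both of them factors of granulocyte development.
Mpo: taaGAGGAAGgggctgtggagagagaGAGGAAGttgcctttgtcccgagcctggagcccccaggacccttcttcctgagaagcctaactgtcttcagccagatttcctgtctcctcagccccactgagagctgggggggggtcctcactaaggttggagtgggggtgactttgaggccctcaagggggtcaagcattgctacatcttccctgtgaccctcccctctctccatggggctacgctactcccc
Elane: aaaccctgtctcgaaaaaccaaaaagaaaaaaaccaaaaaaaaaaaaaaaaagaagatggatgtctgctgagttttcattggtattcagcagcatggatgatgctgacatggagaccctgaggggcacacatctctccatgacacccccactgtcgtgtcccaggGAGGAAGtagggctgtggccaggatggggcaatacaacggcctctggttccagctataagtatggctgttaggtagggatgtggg
Ngp: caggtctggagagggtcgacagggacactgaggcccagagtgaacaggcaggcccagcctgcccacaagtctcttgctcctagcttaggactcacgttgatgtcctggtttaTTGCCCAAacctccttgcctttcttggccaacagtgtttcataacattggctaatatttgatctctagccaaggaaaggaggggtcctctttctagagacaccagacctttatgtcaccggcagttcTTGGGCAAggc
Ltf: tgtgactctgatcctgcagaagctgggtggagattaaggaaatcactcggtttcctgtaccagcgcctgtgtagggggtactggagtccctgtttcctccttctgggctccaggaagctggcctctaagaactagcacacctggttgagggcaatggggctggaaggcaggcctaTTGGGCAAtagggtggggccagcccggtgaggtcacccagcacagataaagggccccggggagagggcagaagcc
The motifs were picked from general knowledge of granulocyte development, and a match is no evidence of binding. GAGGAAG occurred in the 250 bases of both early genes, with 2 matches in Mpo that begin 247 and 224 bases before the start and 1 in Elane at 85 bases. TTGCNNAA occurred in neither early gene. Among the late genes, TTGCNNAA was matched at 138 and 11 bases in Ngp, 75 bases in Ltf and 19 bases in Mmp8, and not in Camp. Mmp8 also held GAGGAAG, at 220 bases. Over all 10 genes, 5 held TTGCNNAA (Ngp, Ltf, Mmp8, Lcn2 and S100a9) and 5 held GAGGAAG (Mpo, Elane, Mmp8, Lcn2 and S100a8), and no match of one motif overlapped a match of the other. The same windows of 32851 RefSeq promoters held TTGCNNAA in 9.56% and GAGGAAG in 10.6%. The deposited data hold no binding measurement, so nothing further was read from these letters.

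Some of these genes are neighbours. S100a8 and S100a9 lie side by side on chromosome 3 with 0 protein-coding genes between them, and Elane adjoins Prtn3, another azurophil protease gene, on chromosome 10. Ngp lies between Camp and Ltf on chromosome 9, with 8 protein-coding genes towards Camp and 20 towards Ltf.

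The early genes were high in 3 arrays of 9. Mpo encodes myeloperoxidase, the peroxidase of azurophil granules. Its signal was 6.09, 6.32 and 6.38 in control groups 1 to 3, 9.92, 10.28 and 5.90 in model groups 1 to 3, and 5.79, 9.34 and 6.33 in HPYD groups 1 to 3. Model groups 1 and 2 and HPYD group 2 stood far above all controls, while model group 3 and HPYD group 1 lay below the lowest control. Elane, the neutrophil elastase gene, read 5.82, 5.89 and 6.05 in the controls, 9.35, 9.38 and 5.59 in the model arrays, and 5.37, 8.76 and 6.02 in the HPYD arrays. The same 3 arrays were high and the same pair was low. Relative to the control mean, Mpo was 12.6-fold higher in model group 1, 16.1-fold in model group 2 and 8.44-fold in HPYD group 2, and Elane, whose log2 differences were 3.43, 3.46 and 2.84, was 10.8-fold higher in model group 1 and 7.14-fold in HPYD group 2. Because the values fell on both sides of the controls within the model and HPYD groups, the groups overlapped.

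The late granule genes had the same pattern. Ngp, the neutrophilic granule protein, read 8.31, 9.13 and 8.50 in the controls, 12.33, 12.45 and 6.05 in the model arrays, and 6.84, 11.66 and 8.52 in the HPYD arrays. It had the largest fall below the controls of the 10 genes, 6.06-fold in model group 3 and 3.50-fold in HPYD group 1. Ltf, which encodes the iron-binding lactoferrin, read 6.83, 7.11 and 6.65 in the controls, 10.40, 10.88 and 6.16 in the model arrays, and 6.03, 9.63 and 7.06 in the HPYD arrays. Its excess over the control mean was 11.6-fold, 16.2-fold and 6.82-fold in model groups 1 and 2 and HPYD group 2. In both model arrays these folds lay near those of the early gene Mpo, and in HPYD group 2 below it.

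Camp, the cathelicidin antimicrobial peptide gene, read 6.41, 6.45 and 6.22 in the controls, 8.38, 8.86 and 5.64 in the model arrays, and 5.98, 7.93 and 6.48 in the HPYD arrays. Its excess in the high arrays was smaller than that of the other late genes, at 4.05-fold, 5.66-fold and 2.96-fold over the control mean in model groups 1 and 2 and HPYD group 2. Mmp8, neutrophil collagenase, read 5.34, 5.60 and 5.52 in the controls, 8.82, 9.36 and 4.26 in the model arrays, and 4.83, 8.60 and 5.24 in the HPYD arrays. HPYD group 2 came nearer to model group 1 for Mmp8 than for Ngp, Ltf or Camp, with a gap of 0.22 on the log2 scale.

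S100a8 and S100a9 encode the subunits of calprotectin, the main cytosolic protein pair of neutrophils. S100a8 read 6.12, 6.60 and 6.63 in the controls, 9.91, 10.53 and 5.57 in the model arrays, and 5.36, 9.23 and 6.38 in the HPYD arrays. S100a9 read 6.64, 6.91 and 6.75 in the controls, 9.94, 10.42 and 5.86 in the model arrays, and 5.97, 9.17 and 6.52 in the HPYD arrays. The pair shared the sign of the difference in all 6 arrays of APP/PS1 labels, with differences from the control mean of 4.08 and 3.66 in model group 2 and -1.09 and -0.79 in HPYD group 1. S100a8 had the highest fold of the 10 genes in model group 2, 16.9-fold.

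Cd177 and Lcn2, with Camp, had the smaller changes in the high arrays. Cd177, a surface protein of neutrophils, read 6.28, 6.25 and 6.28 in the controls, 7.58, 8.19 and 5.90 in the model arrays, and 6.05, 7.55 and 6.49 in the HPYD arrays. Lcn2, a siderophore-binding protein that astrocytes and other brain cells can also make, read 9.51, 10.13 and 9.05 in the controls, 11.72, 11.99 and 7.57 in the model arrays, and 8.15, 11.41 and 8.77 in the HPYD arrays. Cd177 was 2.48-fold, 3.77-fold and 2.42-fold above the control mean in model groups 1 and 2 and HPYD group 2, and Lcn2 4.45-fold, 5.39-fold and 3.60-fold. Lcn2 was the furthest of the 10 below the control mean in the array labelled HPYD group 3, at -0.80 on the log2 scale, where the controls themselves spanned 1.08.

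**Figure D1:**
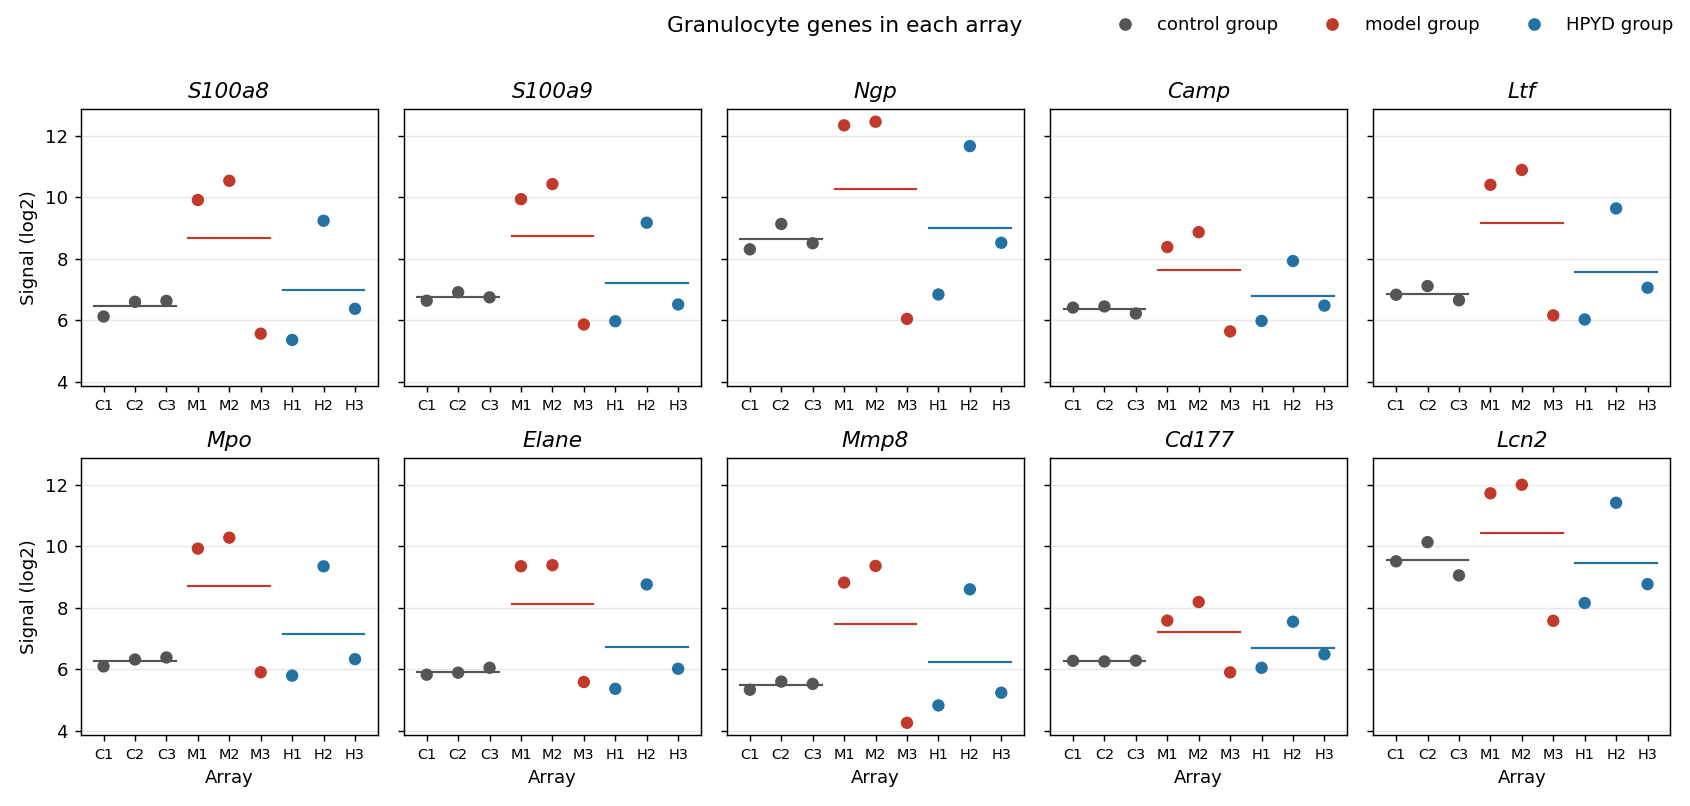
Log2 signal of each of the 10 granulocyte genes (1 panel per gene) in the 9 arrays, with control (C1 to C3), model (M1 to M3) and HPYD (H1 to H3) arrays as coloured points. In every panel M1, M2 and H2 stand above all other arrays, and M3 and H1 lie below the lowest control; heights are not comparable between panels because each gene has its own probes.

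Across arrays, the order was shared by all 10 genes. Model group 2 was highest, model group 1 second and HPYD group 2 next in 10 of 10, a sequence found in 1.68% of all genes. All 10 lay at least 1 log2 unit above the highest control in model group 1, where 0.953% of all genes did, in model group 2 (2.01% of all genes) and in HPYD group 2 (0.602% of all genes). All 10 lay below the lowest control in model group 3, where 20.9% of all genes did, and in HPYD group 1, where 28.1% did. The genes were chosen from these arrays, so these shares are only the background and nothing is read from the comparison. In the array labelled HPYD group 3, 3 of 10 lay below the lowest control, against 27.5% of all genes, 2 lay above the highest and 5 lay within the control range.

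The median difference of the 10 genes from the control mean was 3.38 in model group 1, 3.73 in model group 2 and 2.78 in HPYD group 2 on the log2 scale. As folds, the medians were 10.4, 13.3 and 6.85. Model group 3 had -0.80 and HPYD group 1 had -0.73, or 1.75-fold and 1.66-fold below the control mean. The array labelled HPYD group 3 differed by -0.01. For scale, the control arrays gave -0.11, 0.13 and 0.00, with an SD of 0.12 (n = 3). Only Ngp, Mmp8 and Lcn2 in model group 3 and Ngp in HPYD group 1 were at least 1 log2 unit below the lowest control. The deposited table has no detection calls, so a low signal may be background and the size of a fall is uncertain. In tissue RNA, fewer cells of a type and less RNA per cell cannot be told apart.

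Early and late granule genes differed from the control mean by similar amounts in the high arrays. The median difference of Mpo and Elane was 3.54 in model group 1, 3.74 in model group 2 and 2.96 in HPYD group 2. That of Ngp, Camp, Ltf and Mmp8 was 3.43, 3.84 and 2.89. The late minus early gap was thus -0.11, 0.10 and -0.07 there, against 0.04, 0.17 and -0.27 in the control arrays (SD 0.22, n = 3). All 3 gaps lay inside the range of the controls. Their size and sign depended on which control was left out, with -0.21 to -0.02 in model group 1, 0.01 to 0.25 in model group 2 and -0.22 to 0.07 in HPYD group 2. In the low arrays the median of the late genes was below that of the early ones, although Camp, at -0.38 in HPYD group 1, lay above Mpo and Elane there. The late and early medians were -0.97 and -0.35 in model group 3, a gap of -0.63, and -0.75 and -0.51 in HPYD group 1, a gap of -0.24. Only the gap of model group 3 fell outside the range of the controls, and with 1 array it has no test. It was -0.72 to -0.58 with a control left out, and that of HPYD group 1 was -0.34 to -0.15. Since a low signal may be background, the size of both gaps is uncertain. In the array labelled HPYD group 3 the gap was -0.09, and -0.22 to 0.05 with a control left out.

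**Figure D2:**
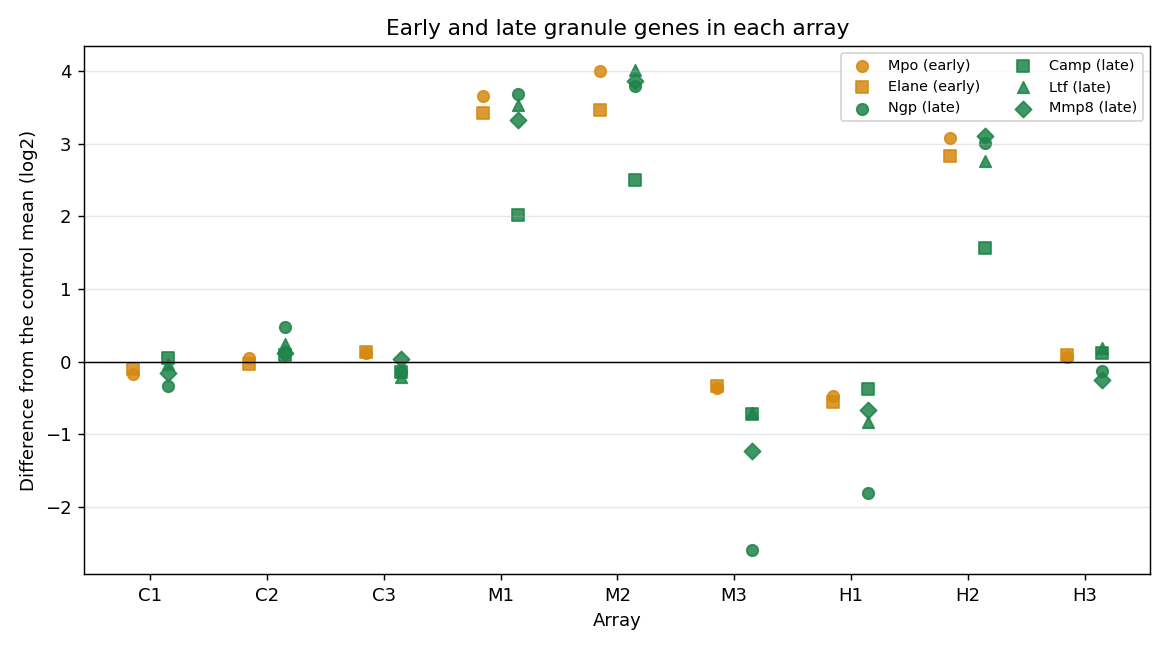
Difference from the control mean (log2) of the 2 early granule genes (orange) and the 4 late ones (green) in each array, with 1 symbol per gene. Early and late genes share the same heights in M1, M2 and H2, apart from Camp, which sits lower. In M3 the late genes reach from -0.70 to -2.60 and Mpo and Elane are at -0.36 and -0.33, where low signals may be background.

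The comparison of the model with the control group asks what the transgenes change, although genotype and sex cannot be told apart in it. Here the difference of means was about as large as the SD within the model group, or smaller. The mean Mpo signal was 8.70 ± 2.43 (SD, n = 3) in the model group and 6.27 ± 0.15 in the control group, a difference of 2.43 on the log2 scale with a standard error of 1.25, and limma's moderated test gave an adjusted p of 0.859. Elane differed by 2.19 with a standard error of 1.15, Ltf by 2.28 with 1.30, and Ngp by 1.63 with 1.79. All 10 had higher means in the model group, with a median difference of 1.98. Leaving out model group 1 gave a median of 1.35, leaving out model group 2 gave 1.09 and leaving out model group 3 gave 3.52, so the size rested on which model array was included. None of the 10 passed an adjusted p of 0.05 in limma, and 0% of all genes did. At an unadjusted p under 0.05, 0 of 10 passed, against 980 of 19938 genes (4.92%). All model arrays lay above all controls in 0 of the 10 and in 4.83% of all genes. Once model group 3 was left out, this held for all 10 and for 2394 of the 19938 genes, which is a description since the genes were selected on these arrays.

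The comparison of HPYD with the model group asks what the peptide changes. All 10 means were lower in the HPYD group, with a median difference of -1.33, and none passed. The mean Mpo signal was 7.16 ± 1.91 (SD, n = 3) in the HPYD group, and its difference of -1.54 had a standard error of 1.25 and an adjusted p of 1 in limma. Ngp, at 9.01 ± 2.45 against 10.28 ± 3.66, differed by -1.27 with a standard error of 1.79. Without the array labelled HPYD group 3 the differences were -1.13 with a standard error of 1.46 for Mpo and -1.03 with 2.13 for Ngp. No gene of all those tested passed the adjusted threshold (0%), and 393 (1.97%) passed unadjusted, with 0 of the 10 among them. Dropping that array left 265 unadjusted, again with 0 of the 10. The median difference was -0.50 without model group 2, -0.68 without model group 1, -2.90 without model group 3, -0.64 without HPYD group 1, -2.47 without HPYD group 2 and -1.04 without the array labelled HPYD group 3. Both groups thus held high and low arrays, and leaving out any 1 of these arrays moved the difference more than either rescaling of the arrays did. All HPYD arrays lay below all model arrays in 0 of the 10 and in 0.983% of all genes, and once model group 3 was left out in all 10 and in 5.21% of all genes. With the array labelled HPYD group 3 dropped instead, this held for 0 of the 10 and 744 of all genes.

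Against the control group, the HPYD group had a median difference of 0.50, and 9 of 10 means were higher, with Lcn2 at -0.12. The comparison shares its control arrays with the first one and its HPYD arrays with the second. No gene passed the adjusted threshold in limma (0%), and 646 (3.24%) passed unadjusted, with 0 of the 10. Dropping the array labelled HPYD group 3 left 451, with 0 of the 10. All HPYD arrays lay above all controls in 0 of the 10 and in 4.78% of all genes, and without that array in 0 of the 10 and 1459 of all genes. The median was 1.39 without HPYD group 1 and turned to -0.39 without HPYD group 2, the 1 array of that group in which the genes were high. Without the array labelled HPYD group 3 it was 0.83. In the fit without that array, the lowest adjusted p among the 10 in limma was 0.783 for the model against the control group and 1 in both other comparisons. With 3 arrays a group their number limits the precision, and the p-values cover no more than the variation among the arrays at hand, part of which may be technical.

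The other genes of the granulocyte programme were described by lists of textbook markers. In model group 1, model group 2 and HPYD group 2, 25.3%, 30.1% and 29.6% of all genes were above every control, which is the background for the counts below. Of the 4 other azurophil and early precursor genes, all 4 were above every control in these 3 arrays, with median differences of 2.01, 2.31 and 1.33. Ctsg, cathepsin G, read 4.93, 5.19 and 5.34 in the controls, 8.25, 8.57 and 4.79 in the model arrays, and 4.92, 7.22 and 5.02 in the HPYD arrays. Prtn3, proteinase 3, read 6.25, 6.22 and 6.38 in the controls, 8.73, 8.79 and 6.02 in the model arrays, and 6.12, 7.81 and 6.05 in the HPYD arrays. Both thus repeated the high arrays of Elane. Ms4a3, a marker of granulocyte and monocyte progenitors, was 6.28, 6.81 and 5.84 in those 3 arrays against 4.62 to 4.75 in the controls. Prss57, another granule protease, spanned only 5.57 to 6.00 over all 9 arrays.

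Of 20 measured genes of the later granules and the cytosol, 18 were above every control in model group 1, 18 in model group 2 and all 20 in HPYD group 2 (25.3%, 30.1% and 29.6% of all genes). Their median differences were 0.69, 1.07 and 0.66, and 7, 10 and 6 of them were at least 1 log2 unit above the highest control. The chitinase-like gene Chil3 had 4.12, 4.48 and 4.32 in the controls, 8.23, 8.22 and 4.36 in the model arrays, and 3.77, 7.34 and 3.97 in the HPYD arrays. Ly6g, the surface antigen that defines mouse neutrophils, had 5.20, 5.46 and 4.94 in the controls, 9.07, 9.30 and 4.35 in the model arrays, and 4.53, 7.87 and 5.42 in the HPYD arrays. Both had the 3 high arrays of the 10 genes, while the stefin genes Stfa2 and Stfa3 stayed at 4.01 to 4.34 in all arrays. Chil3 and Ly6g are also among the genes nearest in profile to the 10, given below, so nothing is read from their shared high arrays. Ceacam1 differed from the control mean by 0.87, 1.25 and 0.55 in the 3 high arrays. Serpinb1a differed by 0.55, 1.42 and 0.40, with 0.58 in the array labelled HPYD group 3. In model group 3 and HPYD group 1 the list's median was -0.09 and -0.10, and 8 of 20 were below the lowest control in each, against 20.9% and 28.1% of all genes.

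Receptors and migration genes were measured for 15 of 18 listed. In model group 1 all 15 were above every control, and 14 were so in each of the other two high arrays, model group 2 and HPYD group 2 (25.3%, 30.1% and 29.6% of all genes). The medians were 0.72, 0.86 and 0.50. Clec5a and Clec4d, C-type lectin receptors of myeloid cells, are among the genes that the study itself picked on these arrays, so they are not independent of them. The study also measured both by RT-qPCR and reports good concordance with its arrays. Csf3r, the receptor for granulocyte colony-stimulating factor, had model and control means of 7.49 ± 0.26 (SD, n = 3) and 6.60 ± 0.13, and Itgb2, the shared β chain of leukocyte integrins, 8.19 ± 0.43 and 7.19 ± 0.05. Unlike the 10 genes, both were also above every control in model group 3 and HPYD group 1, at 7.21 and 7.05 for Csf3r and 7.71 and 7.62 for Itgb2. Microglia express both genes as well. Neither passed in limma, with an adjusted p of 0.859 each.

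The subunits of the phagocyte NADPH oxidase, which makes the superoxide of the respiratory burst, were above every control in 5 of 5 in model groups 1 and 2 and HPYD group 2 (25.3%, 30.1% and 29.6% of all genes), with medians of 0.88, 1.12 and 0.78. Its catalytic subunit Cybb was the furthest, at 9.33, 9.64 and 8.46 in those arrays against 6.30 to 6.46 in the control group, 6.46 in model group 3 and 6.51 in HPYD group 1. Unlike the 10 genes, 3 and 4 of the 5 subunits were also above every control in model group 3 and HPYD group 1. Of all 19938 genes, 3818 and 4099 were. The subunit medians there were 0.16 and 0.11. Transcription factors of the lineage had medians of 0.44, 0.29 and 0.26 in the 3 high arrays, and 0 of 10 were 1 log2 unit above the controls. Spi1, the gene for PU.1, was 8.47, 8.35 and 8.07 in those arrays and 7.03, 7.03 and 7.51 in the control group. Irf8 was 7.86, 7.56 and 7.87 against 6.98 to 7.20. Both were also above every control in model group 3 and HPYD group 1, at 7.57 and 7.55 for Spi1 and 7.73 and 7.65 for Irf8. Of the 10 factors, 3 and 5 were above every control in that pair of arrays, against 3818 and 4099 of all genes. Spi1 was 6.74 in the array labelled HPYD group 3. Cebpe, which drives the late granule genes, was 6.87, 6.72 and 6.61 against 6.12 to 6.24. Gfi1, a repressor needed for granulocyte development, spanned 5.82 to 6.03 over all 9 arrays.

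The signals that call out or guide granulocytes went different ways. Of 13 measured growth factors, chemoattractants and endothelial adhesion genes, 5, 3 and 7 were above every control in model groups 1 and 2 and HPYD group 2, against 25.3%, 30.1% and 29.6% of all genes, and the medians were 0.03, 0.02 and 0.16. Il1b, an inflammatory cytokine gene, was 0.68 and 0.67 above the control mean in both model arrays and 0.24 in HPYD group 2. Cxcl12, which holds granulocytes in the marrow, was 0.31, 0.42 and 0.06 above it. Csf3, granulocyte colony-stimulating factor, ranged from 5.60 to 5.84 over the 9 arrays. None of the 13 was 1 log2 unit above the controls in any array. None of the genes in these 6 lists passed the adjusted threshold of limma in any comparison. At an unadjusted p under 0.05, 1 of 4 azurophil genes, 4 of 20 later granule genes, 5 of 15 receptor genes, 3 of 5 oxidase genes, 2 of 10 transcription factors and 1 of 13 growth factor genes (Cxcl12) were higher in the model than in the control group, and 0 were lower. Over all genes 2.87% were higher at that threshold, so the growth factor count was near the background.

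Genes of other cells and tissues were higher in the same arrays. Of 28 skeletal muscle genes, 27 were above every control in model group 1, 28 in model group 2 and 26 in HPYD group 2, where 25.3%, 30.1% and 29.6% of all genes were. Their medians were 2.07, 3.62 and 0.71. Myot, a sarcomere protein gene, was 8.54, 10.27 and 6.37 in those arrays against 4.91 to 5.12 in the control group. The muscle medians had the same order of these arrays as those of the 10 granulocyte genes. HPYD group 2 stood at 0.71 for muscle and 2.78 for the 10 genes, which were chosen by their levels in these arrays. The list of later granule genes had medians of 0.69, 1.07 and 0.66 in the 3 arrays, so nothing is read from the gap between 0.71 and 2.78. In model group 3 and HPYD group 1 the muscle median was 0.06 and 0.04. At an unadjusted p under 0.05 in limma, 18 of 28 muscle genes were higher in the model than in the control group, against 2.87% of all genes, although 0 passed after adjustment.

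Other blood and marrow lists were also higher there. Of 14 erythroid precursor genes, 11, 12 and 12 were above every control in model groups 1 and 2 and HPYD group 2 (25.3%, 30.1% and 29.6% of all genes), with medians of 0.46, 1.15 and 0.50. Rhag, a protein of the red cell membrane, was 4.78, 6.24 and 5.17 there against 3.87 to 4.20 in the control group. Car1 was the furthest of the 14, at 1.82, 3.41 and 2.25 above the control mean. All 7 megakaryocyte and platelet genes were above every control in these 3 arrays (25.3%, 30.1% and 29.6% of all genes), with medians of 0.66, 0.69 and 0.56, as Pf4 at 7.82, 8.31 and 7.05 against 6.19 to 6.27. Ppbp was the furthest of the 7, at 4.26, 4.81 and 3.50 above the control mean. It differed by -1.13 and -1.35 in model group 3 and HPYD group 1. Eosinophil, basophil and mast cell genes had medians of 0.65, 0.66 and 0.37, and the 5 monocyte genes 0.55, 0.85 and 0.28. The 13 B cell precursor genes had 0.11, 0.12 and 0.23, and their defining surrogate light chain genes Vpreb1 and Igll1 ranged from 5.70 to 6.32 over all arrays. Of the 13, 8, 7 and 9 were above every control in those arrays. Cd79b and Cd79a, chains of the B cell receptor, differed from the control mean by 0.35, 0.60 and 0.57 and by 0.30, 0.52 and 0.99. The transcription factor gene Ebf1 differed by 0.57, 1.94 and 0.69, with 2.16 in the array labelled HPYD group 3. Blnk, of the same list, went the other way, by -0.23, -1.07 and -0.16, with -1.37 in that array. The 9 T and NK cell genes had 0.01, -0.03 and 0.11. In all 3 arrays the medians of the myeloid, erythroid and platelet lists were above those of the lymphoid lists, a difference that was not tested.

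Bone and cartilage genes were above every control in 15, 11 and 13 of 15 in model groups 1 and 2 and HPYD group 2 (25.3%, 30.1% and 29.6% of all genes), with medians of 0.62, 0.40 and 0.41. Of the 15, 6, 6 and 4 were at least 1 log2 unit above the highest control (0.953%, 2.01% and 0.602% of all genes). Col1a1, the main collagen of bone, was 9.65, 9.34 and 8.24 there against 7.72 to 7.95 in the control group, and Ctsk, the osteoclast protease, 7.91, 7.65 and 7.44 against 6.03 to 6.27. Ibsp was the furthest of the 15, at 3.80, 2.18 and 2.25 above the control mean. Cell division genes were above every control in 11 of 11 in all 3 arrays (25.3%, 30.1% and 29.6% of all genes), with medians of 0.79, 1.38 and 0.51. Top2a, a topoisomerase of dividing cells, was 6.41, 7.08 and 6.23 against 5.20 to 5.39. The 10 homeostatic microglia genes followed another order, with medians of 0.15 in model group 1, -0.39 in model group 2 and 0.28 in HPYD group 2. These 10 all lay below the lowest control in the second of these arrays, where 38.0% of all genes did, and in the array labelled HPYD group 3, where 27.5% did. The 10 astrocyte genes had 0.32, 0.64 and 0.64 in the 3 high arrays and 0.12 in both model group 3 and HPYD group 1. The 6 neuron and glia genes had a median difference of -0.01 in model group 1, -0.04 in model group 2 and 0.03 in HPYD group 2, but single genes went both ways. Slc17a7 was -1.01 and Syt1, a synaptic vesicle gene, -0.57 in model group 2, while Gfap was 1.16 in model group 1 and 1.38 in HPYD group 2. These shifts were not particular to the high arrays. Slc17a7 and Syt1 were -0.65 and -0.55 in the array labelled HPYD group 3. Gfap was 0.95 in model group 3 and 0.98 in HPYD group 1, against 0.57 in model group 2. The median of all genes stayed within 0.03 of the control mean. The part of muscle, bone, blood or any other tissue in the levels of the 10 granulocyte genes was not tested.

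**Figure D3:**
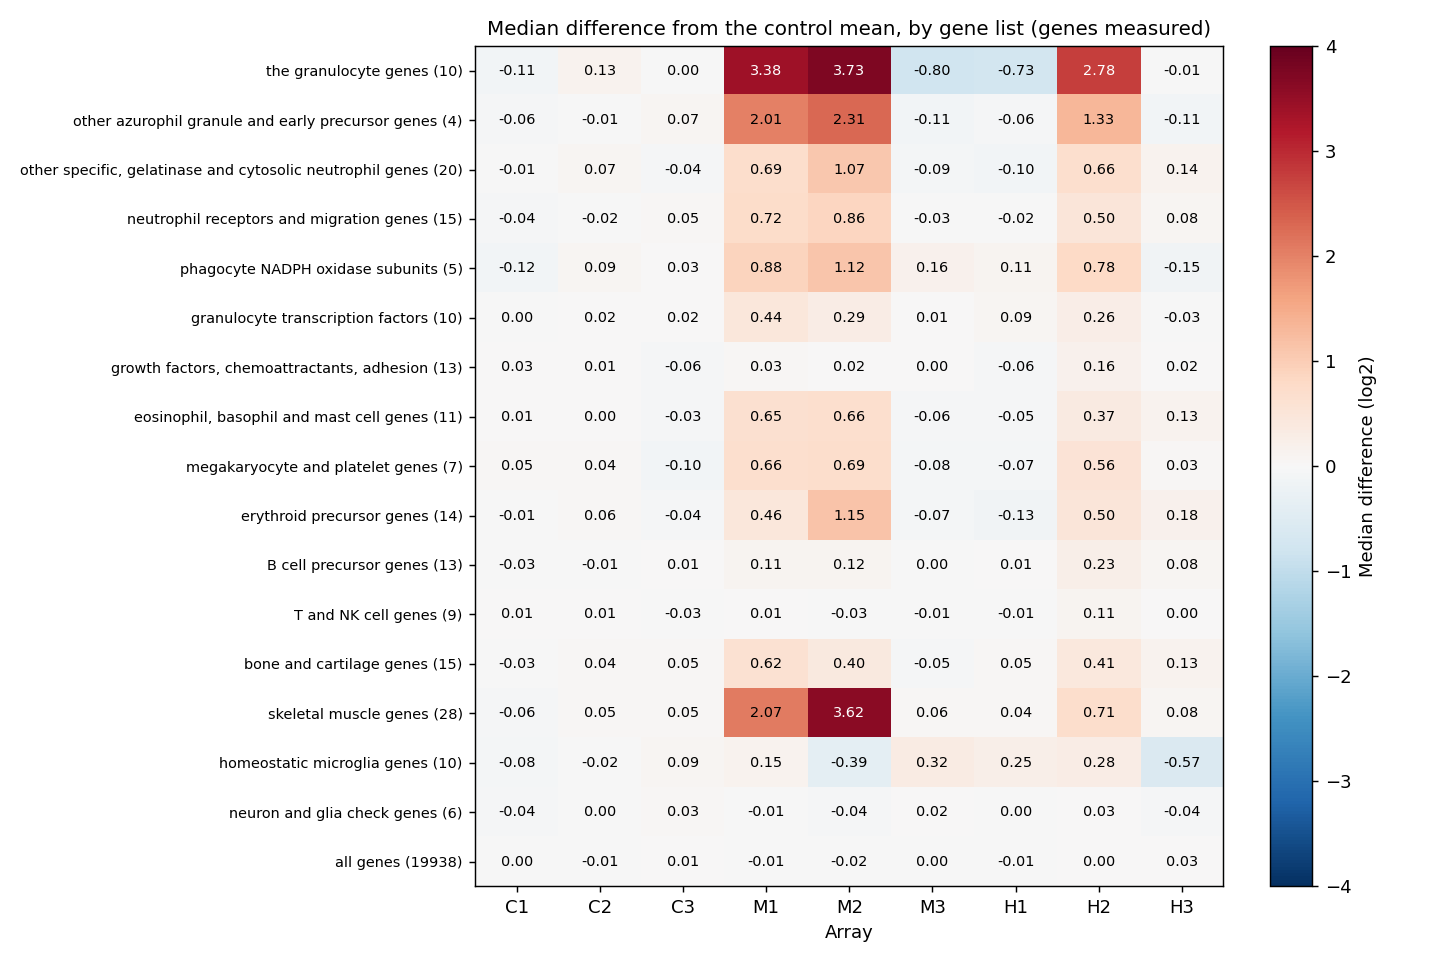
Median difference from the control mean (log2, colour and number) of the 10 granulocyte genes and of other gene lists in each array, with the number of genes measured in parentheses. The 10 granulocyte genes reach 3.38, 3.73 and 2.78 in M1, M2 and H2, where muscle genes reach 2.07, 3.62 and 0.71 and growth factor and chemoattractant genes stay at 0.16 or less.

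The genes whose profile came nearest to that of the 10 were found over the 9 arrays. Likeness was the root mean square of the difference, on the log2 scale, between a gene's differences from the control mean and the median of those of the 10 genes. The 10 nearest were Retnlg (0.10), Ifitm6 (0.14), Ly6a2 (0.18), Ly6g (0.25), F630028O10Rik (0.31), Ear6 (0.32), Prg2 (0.33), Ctsg (0.36), Chil3 (0.38) and Cybb (0.52), where the median over all genes was 1.96. For the 10 genes themselves it ran from 0.16 in Ltf to 1.07 in Cd177. Retnlg, a resistin-like protein of neutrophils, read 6.44, 6.67 and 6.49 in the controls, 9.80, 10.15 and 5.78 in the model arrays, and 5.60, 9.25 and 6.39 in the HPYD arrays. Of the 10 nearest, 7 were in the marker lists. Prg2 and Ear6 are genes of eosinophil granules, and Prg2 differed from the control mean by 3.09, 3.69 and 2.96 in model groups 1 and 2 and HPYD group 2 but by only -0.16 and -0.30 in model group 3 and HPYD group 1. Cybb lay above the control mean by 0.05 and 0.11 in that pair of arrays. Ear6, Ly6a2 and Ly6g belong to families of near-identical copies, so their probes may read more than 1 gene.

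**Figure D4:**
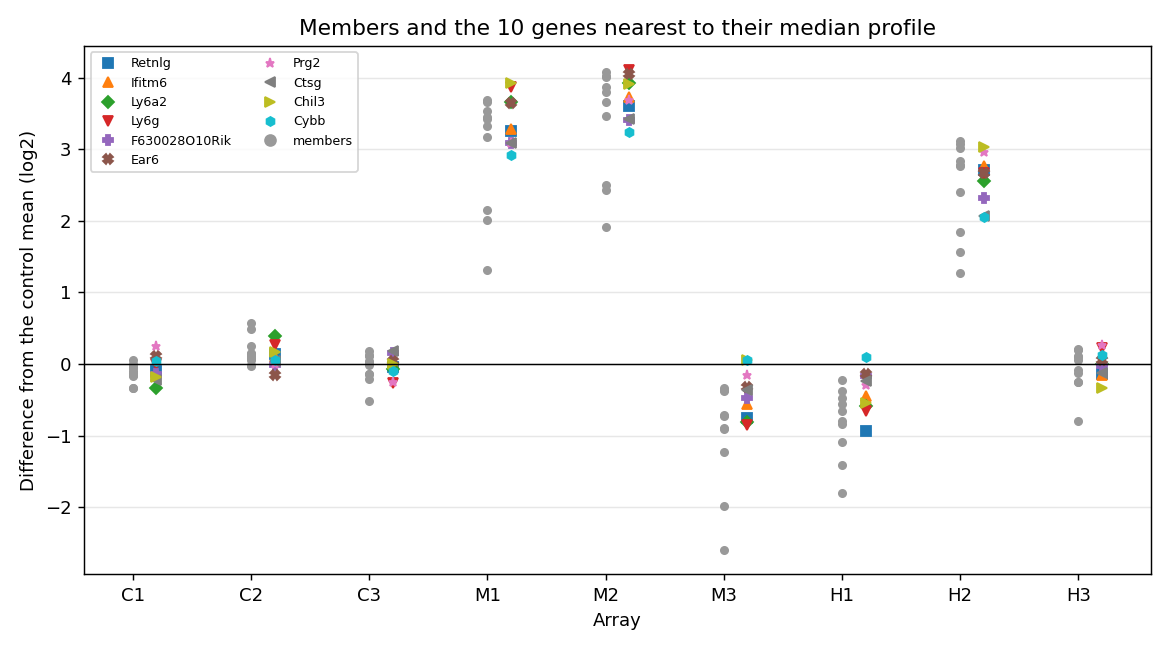
Difference from the control mean (log2) in each array of the 10 granulocyte genes (grey) and of the 10 other genes nearest to their median profile (coloured symbols). The coloured genes, which were picked for this nearness, overlie the grey ones in M1, M2 and H2, apart from Cd177, Camp and Lcn2, which lie lower. In M3 the grey points reach further down, to -2.60 in Ngp.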

How the data were processed

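Brain total RNA from 9 samples was hybridised to GeneChip Mouse Gene arrays. The deposited values are on a log2 scale, with 1 value for each of the probe sets on each array. The submitters' notes name MAS5 for the processing done by the authors, and the normalization behind the log2 values was not given in the sources used here. Values ran from 2.37 to 14.01 with array medians of 6.69 to 6.82, Pearson correlations between arrays of 0.970 to 0.997, and all columns were used. Of 35556 probe sets, 21789 had a single gene symbol in the platform annotation, 1621 had several and 12146 had none and were not named. The probe set with the highest mean stood for a gene, which gave 19938 genes, 999 of them with several probe sets.

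Groups came from the labels. limma 3.58.1 in R 4.3.3 was fitted to all 9 arrays and 3 groups with 6 residual degrees of freedom and 2.13 prior ones, and p-values were adjusted by Benjamini-Hochberg over all genes at 0.05. The procedure was tested on simulated data. Differences, folds and medians were taken from the log2 values per array with Python 3.11.15. The genes, gene lists and tests were chosen with earlier results of these data known. The text names all 10 genes, the 10 others nearest to their profile, up to 4 genes per list with the smallest p for the model against the control group, defining markers, and genes that check the labels and tissue. Stfa2, Stfa3, Gfi1, Cebpe, Cd79a, Blnk, Car1, Ppbp, Ibsp and Syt1 fall outside this rule and were picked once their values were known. Alternatives were another scaling, filter, variance model, probe set rule, threshold and test, array weights, only 2 groups in the fit, the replicate number as a block, and leaving out each array.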

Additional observations from a re-analysis of the deposited data

How the results depend on the processing

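With 3 arrays a group, leaving out 1 model or HPYD array moved its differences of the 10 genes more than another scaling did, while the counts over all genes moved most with the threshold. None of the 10 granulocyte genes passed in any setting. Over all genes, limma's adjusted count for the model against the control group was 0, but 5 with only these groups in the fit and 0 to 7 when arrays were left out in turn, with 7 once the array labelled HPYD group 3 was dropped. For HPYD against control it was 0 to 8, with 8 when it was dropped, and for HPYD against the model it remained 0. In the counts of 5, 7 and 8, genotype and sex cannot be told apart. Unadjusted, 980, 393 and 646 genes passed for the model against control, HPYD against the model and HPYD against control. Dropping the array labelled HPYD group 3 gave 1031, 265 and 451, a setting chosen after seeing the data. The methods' analysis of variance with Student-Newman-Keuls gave 287, 137 and 241 unadjusted and 0 after Benjamini-Hochberg. All model arrays lay above all controls in 0 to 10 of the 10 genes, all HPYD arrays below all model arrays in 0 to 10, both 10 without model group 3, and all HPYD arrays above all controls in 0 to 2, with 2 without HPYD group 1. For the array labelled HPYD group 3 the median of the 10 genes was -0.13 to 0.085 as controls were left out. Other scalings, which shifted the median of all genes by at most 0.04, and the probe set rule kept the medians of the 10 genes. The cause of these shifts was not tested.

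With the replicate block the median differences of the 10 genes were 1.98, -1.33 and 0.50 as without it, and 0 of them passed. The deviations of samples of the same number had correlations of -0.32 to 0.18. Samples of different numbers were not compared in this way, so the check cannot tell whether the numbers pair the samples.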
